A study of Mus musculus with 8 samples.

Results

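The genes described here are neighbours of *Cd151* on the distal part of mouse chromosome 7, on both sides of the locus targeted in the *Cd151*-/- mouse. They were taken from a list of 39 gene symbols, by exact match to the symbol column of the signal table, and 33 of the 39 symbols were matched among the 18120 symbols of the array. *Rnh1*, *Polr2l*, *Chid1* and *Ppfia1* were not analysed here. *Glrx3* and *Sigirr* also had no row under those symbols, and their rows under the older names *Txnl2* and *AI256711* are given with the other genes of the region. Glomerular RNA was from 3-week-old males of the FVB/N strain, 4 *Cd151*+/+ and 4 *Cd151*-/-, with 1 mouse per Illumina MouseRef-8 v1.1 array. The *Cd151*-/- mice lack *Cd151* in every cell and develop proteinuria on this background, and the glomeruli of both groups were collected with magnetic beads perfused through the heart. The study asked which glomerular transcripts differ at this early stage of the disease. Age, sex and strain are the same in the labels of both groups.

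*Cd151* encodes a tetraspanin, a membrane protein that holds laminin-binding integrins in place at the foot of podocytes, the epithelial cells of the glomerular filter. The stretch of chromosome around it is gene-dense, and the neighbours share a place in the genome and not a pathway. Among them are enzymes of mitochondria and of lipid and nucleotide metabolism, signalling proteins such as the GTPase HRAS and cyclin D1, regulators of innate immunity, and muscle troponins. In a line whose targeted allele was moved from one strain to another, the chromosome next to the allele can remain that of the first strain. The study names C57BL/6 as the original background of these knockouts. The arrays give no genotype of the neighbourhood, so an origin of the flanking chromosome and the loss of *Cd151* itself cannot be told apart here. A base under a probe that differs between strains can also change its signal without a change in RNA. The bases under the probes were not analysed here. For genes near *Cd151*, the arrays alone therefore cannot tell a change of probe signal from a change of RNA either.

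Levels are given as normalised log2 signal, and differences as log2 fold change, *Cd151*-/- minus *Cd151*+/+. Where a gene had several probes, the brightest on average is reported. A probe was tested where its detection p-value, the share of negative-control probes at least as bright, was 0.05 or lower on at least 1 array. Of the 33 symbols, 29 passed this filter, with 46 of 50 probes, while *Bnip3*, *Utf1*, *Deaf1* and *Tnnt3* were detected on no array. Since *Efcab4a* and *BC026645* are both names of the gene now called *Cracr2b*, the 29 symbols stand for 28 genes. Between 35 and 41 of the 50 probes were detected per mouse. By the brightness of undetected probes the arrays fell into 2 sets, the brighter with *Cd151*+/+ mice 3 and 4 and *Cd151*-/- mice 1 and 2, at 113 to 121, and the dimmer with the other mice, at 54.7 to 64.7. Differences within each set are therefore given for the leading genes, and with 4 arrays per genotype the precision of every value is limited.

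The targeted gene was checked first. At its brightest probe, *Cd151* had a signal of 14.62, 14.53, 14.20 and 14.15 in *Cd151*+/+ mice 1 to 4 and of 4.50, 4.55, 4.69 and 4.55 in *Cd151*-/- mice 1 to 4, where it was not detected. Each of its 3 probes was detected in every *Cd151*+/+ mouse and in no *Cd151*-/- mouse, so that the arrays followed their labels. Set against the lowest detected signal of each *Cd151*-/- array, its signal was at least 523-fold lower (limma, adjusted p = 6.51e-10 by Benjamini-Hochberg).

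Among the neighbours, *Echs1*, *Efcab4a*, *BC026645* and *Pddc1* were lower and *Nadsyn1* was higher in *Cd151*-/- glomeruli at an unadjusted p below 0.05 in limma. The log2 fold changes of these 5 symbols ran from −1.26 to 1.06. None of the 29 symbols passed Benjamini-Hochberg adjustment over all probes, and each of these 5 had an adjusted p of 0.918. Of the 11240 symbols tested on the whole array, 0.0267% passed that adjustment, namely *Cd151*, *1810014F10Rik* and *Spon2*. In glomerular RNA, fewer cells of a type and less RNA per cell cannot be told apart, for these genes and for all that follow.

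The 4 lower symbols of 29 stand beside a share of 2.47% of all tested symbols that were lower at this threshold, and the 1 higher symbol beside 1.90%. In both directions together, 17.2% of the neighbours and 4.37% of all symbols passed. The neighbours were brighter, with a median level of 10.17 against 7.68 over all symbols, and the shares were not compared at like brightness. Values were below 0 for 19 neighbours and above 0 for 10, with a median log2 fold change of −0.16, against 5652 below and 5588 above 0 and a median of 0.00 (−0.0018) over all symbols. The groups did not overlap for 1 neighbour, *Echs1*, which was lower, beside 1.34% of all symbols that were lower without overlap. No neighbour was higher without overlap, beside 0.925% of all symbols. The count of 4 lower symbols, which stand for 3 genes, became 2 without *Cd151*-/- mouse 1, where *Echs1* and *Efcab4a* were left. Blocking on the array set made it 8, when 10.8% of all symbols passed in either direction, and no neighbour passed the adjustment in that fit.

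**Figure D1:**
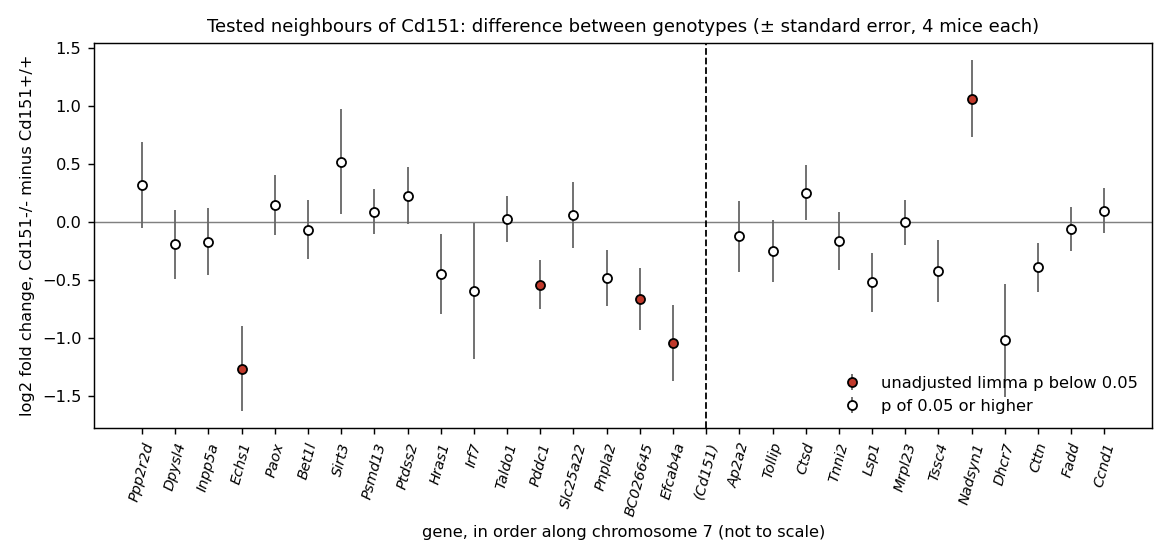
Log2 fold change of the 29 tested neighbours of Cd151 (vertical axis, points, with the standard error from limma as bars, 4 mice per genotype), in their order along chromosome 7 (horizontal axis, evenly spaced and not to scale), with the place of Cd151 as a dashed line. Red points mark the 5 symbols with an unadjusted p below 0.05, of which Nadsyn1 alone lies above 0 and Efcab4a, BC026645 and Pddc1 lie close to the dashed line.

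**Figure D2:**
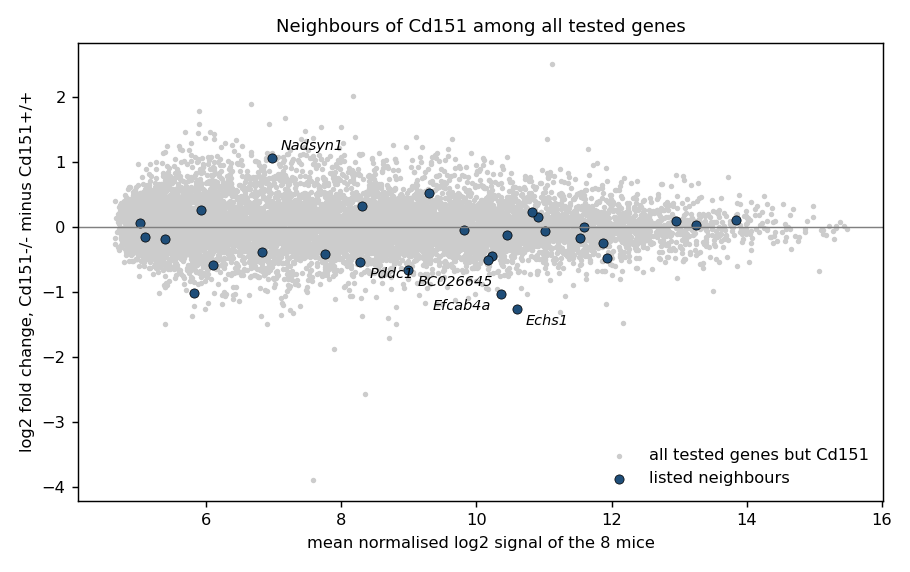
Log2 fold change (vertical axis) against the mean normalised log2 signal of the 8 mice (horizontal axis) for all tested symbols but Cd151, 1 grey point each, with the 29 neighbours of Cd151 as larger blue points. The neighbours spread over most of the range of signal, though not up to its brightest end, with a median level of 10.17 against 7.68 over all symbols. They lie between −1.26 and 1.06, with names at those that had an unadjusted p below 0.05.

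The nearest neighbour of *Cd151* towards the centromere is *Cracr2b*, which encodes a calcium-binding regulator of store-operated calcium channels, and both probes of it were lower in *Cd151*-/- glomeruli. The probe listed as *Efcab4a* had a signal of 11.33, 11.24, 10.62 and 10.36 in *Cd151*+/+ mice 1 to 4 and of 9.40, 9.91, 10.63 and 9.47 in *Cd151*-/- mice 1 to 4. *Cd151*-/- mouse 3 lay above *Cd151*+/+ mice 3 and 4, so the groups overlapped, and the other 3 *Cd151*-/- mice lay below all *Cd151*+/+ mice. The means were 10.89 ± 0.47 and 9.85 ± 0.57 (SD, n = 4 each), a log2 fold change of −1.04 with a standard error of 0.33 and a 2.05-fold lower signal (unadjusted p = 0.00899 in limma; exact permutation test, p = 0.0857). On the dimmer arrays the difference was −1.24 and on the brighter −0.84, and leaving out any 1 mouse gave −1.29 to −0.89.

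The probe listed as *BC026645* read 9.45, 9.71, 9.21 and 8.92 in *Cd151*+/+ mice 1 to 4 and 8.40, 8.82, 9.17 and 8.26 in *Cd151*-/- mice 1 to 4. Here too *Cd151*-/- mouse 3 was the highest of its group and lay above *Cd151*+/+ mouse 4. The genotypes differed by a log2 fold change of −0.66 (standard error 0.27, unadjusted p = 0.0308 in limma; exact permutation test, p = 0.0571), with −0.87 on the dimmer and −0.45 on the brighter arrays. Because the 2 probes belong to 1 gene, they are not separate neighbours. For *BC026645* the unadjusted p in limma was above 0.05 when *Cd151*+/+ mouse 1 (0.0710) or 2 (0.0980) or *Cd151*-/- mouse 1 (0.0806) or 4 (0.0880) was left out, and so it was in the methods' t-test on cubic spline intensities (0.0530), whereas that of *Efcab4a* stayed below 0.05 in all 21 settings tried.

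*Pddc1*, now called *Gatd1*, encodes a protein with a glutamine amidotransferase-like domain and lies a few genes further towards the centromere. Its signal was 8.72, 8.69, 8.24 and 8.55 in *Cd151*+/+ mice 1 to 4 and 7.84, 7.84, 8.24 and 8.14 in *Cd151*-/- mice 1 to 4. Only *Cd151*+/+ mouse 3 and *Cd151*-/- mouse 3, at nearly the same value, kept the groups from standing apart. The means of 8.55 ± 0.22 and 8.01 ± 0.21 gave a log2 fold change of −0.54 (standard error 0.21, unadjusted p = 0.0277 in limma; exact permutation test, p = 0.0571), and the difference was −0.52 on the dimmer and −0.56 on the brighter arrays. Its unadjusted p in limma was above 0.05 when *Cd151*+/+ mouse 1 (0.0806) or 2 (0.0776) or *Cd151*-/- mouse 1 (0.0758) or 2 (0.0712) was left out, and with the mouse number as a replicate block (0.0828).

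Of the listed genes, those between *Pddc1* and *Cracr2b* are *Slc25a22*, which encodes a mitochondrial glutamate carrier, and *Pnpla2*, which encodes adipose triglyceride lipase. *Pnpla2* read 12.48, 12.18, 12.41 and 11.62 in *Cd151*+/+ mice 1 to 4 and 11.75, 11.38, 11.91 and 11.73 in *Cd151*-/- mice 1 to 4. *Cd151*+/+ mouse 4 lay within the *Cd151*-/- group, and the log2 fold change of −0.48 (standard error 0.24) did not pass (unadjusted p = 0.0755 in limma). Its unadjusted p was below 0.05 in 6 of the 21 other settings, among them the set of arrays as block (0.0434). *Slc25a22* was detected in only 1 mouse of each genotype, with 4.56, 4.76, 5.44 and 5.18 in *Cd151*+/+ and 4.89, 5.17, 4.55 and 5.57 in *Cd151*-/- mice 1 to 4, so that its log2 fold change of 0.06 compares signals near background. On the other side of *Cd151*, *Polr2l* and *Chid1* are the nearest listed genes, and the nearest with a row was *Ap2a2*, a subunit of the AP-2 adaptor that links cargo to clathrin coats. It read 10.67, 10.89, 9.87 and 10.63 in *Cd151*+/+ and 9.99, 9.93, 10.74 and 10.92 in *Cd151*-/- mice 1 to 4, groups that covered the same range, with a log2 fold change of −0.12 ± 0.31 (standard error, unadjusted p = 0.700 in limma).

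**Figure D3:**
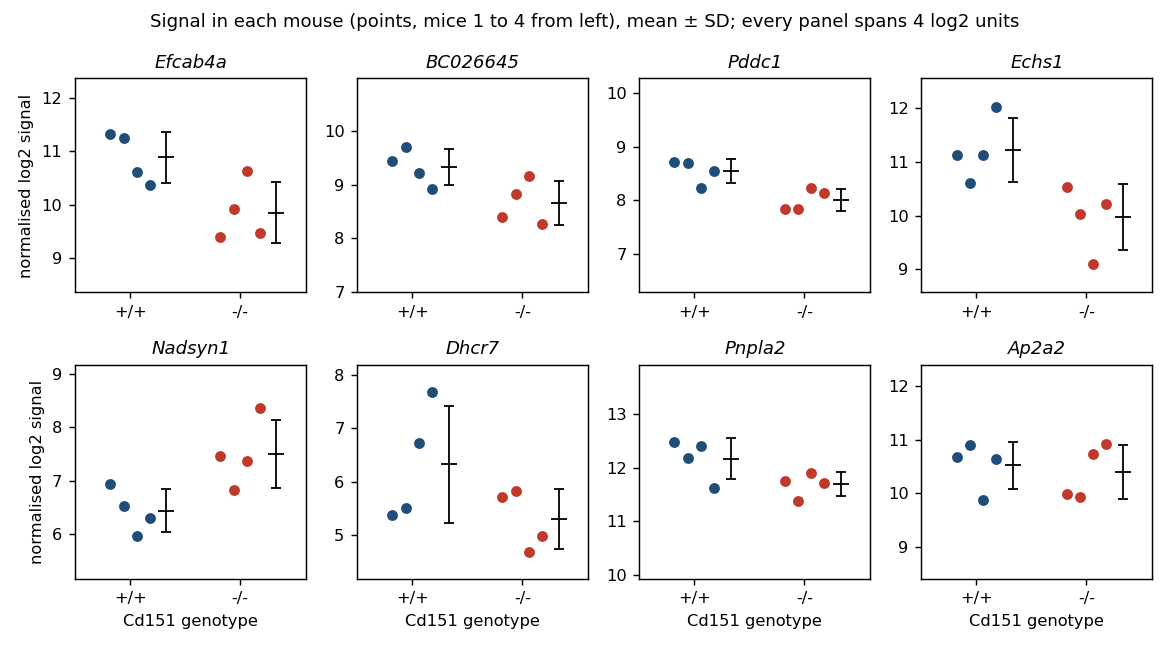
Normalised log2 signal (vertical axes, each spanning 4 units) of 8 neighbours of Cd151 in each mouse, with Cd151+/+ mice in blue and Cd151-/- mice in red, mice 1 to 4 from left to right, and the mean ± SD of each group in black (n = 4). The groups stand apart for Echs1 and overlap by 1 or 2 mice for Efcab4a, BC026645, Pddc1 and Nadsyn1, while the Ap2a2 values of both genotypes cover the same range.

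*Echs1* encodes the short-chain enoyl-CoA hydratase of mitochondria, which acts in fatty acid oxidation and valine breakdown. Its signal was 11.13, 10.61, 11.14 and 12.03 in *Cd151*+/+ mice 1 to 4 and 10.53, 10.02, 9.10 and 10.22 in *Cd151*-/- mice 1 to 4. Every *Cd151*-/- mouse lay below every *Cd151*+/+ mouse, though *Cd151*-/- mouse 1 and *Cd151*+/+ mouse 2 were close to each other. The means were 11.23 ± 0.59 and 9.97 ± 0.62 (SD, n = 4 each), a log2 fold change of −1.26 with a standard error of 0.36 and a 2.39-fold lower signal (unadjusted p = 0.00538 in limma; exact permutation test, p = 0.0286, the smallest that 4 against 4 mice can give). On the dimmer arrays the difference was −1.21 and on the brighter −1.31, it lay between −1.46 and −0.97 with each mouse left out and was −0.81 with array weights, and its unadjusted p stayed below 0.05 in all 21 settings.

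In the gene table *Echs1* lies between *Paox* and *Fuom*, the fucose mutarotase gene, which is not among the 39 symbols. The array's *1810014F10Rik* was taken to be *Fuom* only from its published protein name, as the gene table does not list that symbol, and its place rests on this. Its signal was 9.51, 9.24, 9.52 and 9.84 in *Cd151*+/+ and 5.80, 5.50, 4.69 and 6.53 in *Cd151*-/- mice 1 to 4, and it was the only gene placed within 5 Mb of *Cd151*, besides *Cd151*, to pass the adjustment. The study's real-time PCR in another cohort of mice did not bear out a lower *1810014F10Rik*. *Cd151*-/- mouse 3 had the lowest signal of both *Echs1* and *1810014F10Rik*. The other probe of *1810014F10Rik*, detected in all 8 mice, went the opposite way with a log2 fold change of 0.20 (unadjusted p = 0.662 in limma), and with the mean over both probes the adjusted p of the gene was no longer below 0.05 (0.271, limma with Benjamini-Hochberg adjustment; 4.94e-05 to 0.271 over the settings tried). *Paox*, which encodes the peroxisomal polyamine oxidase, had a log2 fold change of 0.15 ± 0.26 (standard error, unadjusted p = 0.568 in limma), and its 4 probes ranged from −0.16 to 0.15.

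The upstream sequences of *Echs1* and *Pddc1*, from RefSeq for GRCm38.p6, are shown because these genes were lower at an unadjusted p below 0.05. Each runs over the 250 bases before the annotated start, 5′ to 3′ on the minus strand, at chr7:140116422-140116671 for *Echs1* and chr7:141414126-141414375 for *Pddc1* (*Gatd1*), with every match to the GC box GGGCGG on either strand in capitals.
*Echs1*: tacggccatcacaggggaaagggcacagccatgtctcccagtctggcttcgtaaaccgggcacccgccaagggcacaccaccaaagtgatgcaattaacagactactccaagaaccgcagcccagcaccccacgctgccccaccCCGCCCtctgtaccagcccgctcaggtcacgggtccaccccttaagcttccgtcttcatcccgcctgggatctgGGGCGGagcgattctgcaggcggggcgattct
*Pddc1*: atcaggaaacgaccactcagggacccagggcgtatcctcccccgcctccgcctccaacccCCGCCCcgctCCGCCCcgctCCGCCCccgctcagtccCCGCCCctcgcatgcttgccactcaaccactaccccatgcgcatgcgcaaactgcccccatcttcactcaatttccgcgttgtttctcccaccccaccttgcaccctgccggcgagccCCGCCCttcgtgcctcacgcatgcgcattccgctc
The *Echs1* window held 2 such matches and the *Pddc1* window 5, and 32.9% of the 27025 upstream windows of the table held at least 1. Neither held a match to CCAAT, the E-box CACGTG, the ETS motif CCGGAAG or the sterol response element TCACNCCAC on either strand, which 34.5%, 6.05%, 7.05% and 1.04% of windows did. The bases are those of the C57BL/6J reference, and the sequence carried by these mice was not measured.

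*Nadsyn1* and *Dhcr7* are neighbours that point away from each other, with 314 bases between their annotated starts. Of the pair, *Nadsyn1* passed an unadjusted p of 0.05 and *Dhcr7* did not. *Nadsyn1* encodes the glutamine-dependent NAD synthetase, the last enzyme of NAD synthesis from nicotinic acid. It read 6.94, 6.53, 5.98 and 6.31 in *Cd151*+/+ mice 1 to 4 and 7.46, 6.83, 7.36 and 8.36 in *Cd151*-/- mice 1 to 4. *Cd151*-/- mouse 2 lay below *Cd151*+/+ mouse 1, and the other *Cd151*-/- mice lay above the whole *Cd151*+/+ group. The means of 6.44 ± 0.40 and 7.50 ± 0.64 (SD, n = 4 each) gave a log2 fold change of 1.06 with a standard error of 0.33, a 2.09-fold higher signal (unadjusted p = 0.00848 in limma; exact permutation test, p = 0.0571), with 1.13 on the dimmer and 1.00 on the brighter arrays.

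The other probes of *Nadsyn1* bear on this. A second one was higher by 0.58 (unadjusted p = 0.150 in limma), detected in 3 mice of each genotype. The third was at −0.39 and was detected in 1 *Cd151*+/+ and no *Cd151*-/- mouse. It passed the filter only through the group where it was higher, so its direction adds nothing. With the mean over the 3 probes, this one included, the log2 fold change of *Nadsyn1* was 0.42 and did not pass (unadjusted p = 0.107 in limma). At the brightest probe the log2 fold change was 0.62 without normexp. In the methods' t-test on cubic spline intensities it was 1.21 and did not pass (unadjusted p = 0.0693 in that test). *Dhcr7*, which encodes the enzyme of the last step of cholesterol synthesis, read 5.38, 5.50, 6.73 and 7.68 in *Cd151*+/+ and 5.71, 5.83, 4.70 and 4.98 in *Cd151*-/- mice 1 to 4. It was detected in 3 *Cd151*+/+ and 2 *Cd151*-/- mice, and *Cd151*+/+ mice 3 and 4 alone stood above the *Cd151*-/- group. The log2 fold change of −1.02 (standard error 0.49) did not pass (unadjusted p = 0.0610 in limma), with −0.60 on the dimmer and −1.43 on the brighter arrays. The *Dhcr7* value was −0.54 without *Cd151*+/+ mouse 4 and −1.37 without *Cd151*+/+ mouse 1. It was −0.48 without normexp, and ran from −1.60 to −0.30 over the settings that kept every mouse. Its unadjusted p was below 0.05 in 5 of the 20 settings that gave a value, among them the array set as block in limma (0.00257).

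The 250 bases before the start of *Dhcr7* are shown because 186 of them also lie in the 250 bases before the start of *Nadsyn1*. They run 5′ to 3′ on the plus strand at chr7:143822917-143823166 of GRCm38.p6, from RefSeq, with matches to the GC box GGGCGG and the ETS motif CCGGAAG on either strand in capitals.
*Dhcr7*: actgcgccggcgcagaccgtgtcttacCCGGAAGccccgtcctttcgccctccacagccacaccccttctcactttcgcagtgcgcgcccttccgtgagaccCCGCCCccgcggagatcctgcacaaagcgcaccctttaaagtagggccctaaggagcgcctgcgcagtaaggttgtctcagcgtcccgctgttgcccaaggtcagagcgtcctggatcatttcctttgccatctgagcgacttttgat
There was 1 match to each, and none to CCAAT, the E-box or the sterol response element in the letters given above.

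The remaining neighbours are grouped by what they do, and none of them passed an unadjusted p of 0.05 with the settings used throughout. Some did under other settings. With the set of arrays as block, *Hras1* (0.0215) and *Irf7* (0.0385) had an unadjusted p below 0.05 in limma, where 10.8% of all symbols did. *Cttn* did with no detection filter (0.0337) and in the methods' t-test on log2 values (0.0455). With array weights, where 31.9% of all symbols did, so did *Sirt3* (at 1.14), *Ppp2r2d* (0.93), *Irf7* (−1.49), *Hras1* (−0.96), *Tssc4* (−0.70), *Lsp1* (−0.65), *Dpysl4* (−0.62), *Tollip* (−0.55), *Inpp5a* (−0.53) and *Cttn* (−0.45). Single mice moved several of the values that follow: with 1 mouse left out, *Sirt3* ran from 0.26 to 0.86, *Irf7* from −1.02 to −0.19, *Hras1* from −0.67 to −0.25, *Ppp2r2d* from 0.11 to 0.57 and *Ptdss2* from 0.03 to 0.35. In the same way *Tollip* ran from −0.44 to −0.11, *Inpp5a* from −0.36 to −0.0063 and *Ctsd* from 0.16 to 0.39. Of the genes of metabolism, *Sirt3*, a mitochondrial deacetylase, had a log2 fold change of 0.52 ± 0.45 (standard error). Its *Cd151*+/+ values of 8.24, 8.34, 9.89 and 9.64 and its *Cd151*-/- values of 10.04, 9.69, 8.52 and 9.95 in mice 1 to 4 overlapped widely. *Taldo1*, transaldolase of the pentose phosphate pathway, was at 13.23 ± 0.08 in *Cd151*+/+ and 13.26 ± 0.22 in *Cd151*-/- mice (SD, n = 4 each). The mitochondrial ribosomal protein gene *Mrpl23* was at 11.60 ± 0.07 and 11.60 ± 0.16. *Ptdss2*, which encodes a phosphatidylserine synthase, had a log2 fold change of 0.23 ± 0.25 (standard error).

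Of the signalling and cell cycle genes, *Hras1*, the HRAS GTPase gene, had a log2 fold change of −0.45 ± 0.34 (standard error), with *Cd151*+/+ values of 9.90 to 11.04 and *Cd151*-/- values of 9.47 to 10.68. *Ccnd1*, cyclin D1, was at 13.79 ± 0.07 in *Cd151*+/+ and 13.89 ± 0.19 in *Cd151*-/- mice at its brightest probe. A second *Ccnd1* probe was higher by 0.21, and the dimmest of the 3 went the opposite way, at −0.77 with an unadjusted p of 0.0311 in limma. *Ppp2r2d*, a regulatory subunit of protein phosphatase 2A, had a log2 fold change of 0.32 ± 0.37 (standard error), and *Inpp5a*, an inositol polyphosphate phosphatase, of −0.17 ± 0.29. *Fadd*, the adaptor of death receptors, was at 9.85 ± 0.16 and 9.79 ± 0.08 in the 2 groups, and of its other 3 probes 1 went the opposite way. Another, detected in a single *Cd151*+/+ mouse, was at −0.54 with an unadjusted p of 0.0442 in limma. That probe passed the filter only through the group where it was higher, so its direction adds nothing.

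Of the genes of innate immunity, *Irf7*, a transcription factor of the interferon response, was detected in 3 mice of each genotype. It read 7.62, 7.22, 5.14 and 5.63 in *Cd151*+/+ mice 1 to 4 and 5.31, 4.88, 6.93 and 6.11 in *Cd151*-/- mice 1 to 4. In both genotypes the higher values were those of the dimmer arrays, and the log2 fold change of −0.60 ± 0.59 (standard error) was −0.90 within the dimmer and −0.29 within the brighter set. *Tollip*, an inhibitor of Toll-like receptor signalling, had a log2 fold change of −0.25 ± 0.27. *Lsp1*, an actin-binding protein of leukocytes, was at 10.43 ± 0.21 in *Cd151*+/+ and 9.91 ± 0.44 in *Cd151*-/- mice (SD, n = 4 each; unadjusted p = 0.0661 in limma, and below 0.05 in 6 of the 21 other settings).

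Of the genes of the cytoskeleton, of trafficking and of protein turnover, *Cttn*, cortactin, had a log2 fold change of −0.39 ± 0.21 (standard error), and 1 of its 3 dimmer probes went the opposite way. *Tssc4* was at −0.42 ± 0.27, and its other probe at −0.08. *Psmd13*, a subunit of the proteasome's regulatory particle, was at 12.91 ± 0.13 and 13.00 ± 0.16 (SD, n = 4 each). *Bet1l*, a SNARE protein of the Golgi, had a log2 fold change of −0.06 ± 0.25 (standard error) and *Ctsd*, the lysosomal protease cathepsin D, of 0.26 ± 0.23. *Tnni2*, fast skeletal troponin I, was detected in 1 mouse of each genotype, and *Dpysl4*, a relative of the collapsin response mediators, in 2 of each at its brightest probe. Of its 2 dimmer probes 1 went the opposite way, but it was detected in 1 *Cd151*-/- mouse alone, so its direction adds nothing.

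The list holds only part of the genes near *Cd151*. *Tspan4*, a tetraspanin gene that lies just beyond *Polr2l*, had a log2 fold change of 0.15 ± 0.25 (standard error), *AI256711* (*Sigirr*, an inhibitory receptor of IL-1 signalling) of 0.16 ± 0.27 and *Txnl2* (*Glrx3*, a glutaredoxin) of 0.31 ± 0.19. In all, another 60 symbols within 5 Mb had a tested probe, and of these *1810014F10Rik*, *Tspan32* and *Tnfrsf22* were lower and *H19* and *Igf2* higher at an unadjusted p below 0.05, a share of 8.33% beside 4.37% over the array. *Tspan32*, which encodes a tetraspanin too, was above background in all 4 *Cd151*+/+ mice and in 0 *Cd151*-/- mice (adjusted p = 0.0552, limma with Benjamini-Hochberg adjustment; 0.0151 to 0.995 over the settings tried). *Tnfrsf22*, a decoy receptor for a death ligand, had a log2 fold change of −1.71, and the imprinted growth factor gene *Igf2* and its neighbour *H19* of 0.66 and 0.91, with an unadjusted p below 0.05 in 17 and 13 of the 21 other settings. Within 1 Mb, 31 further symbols were tested and none had an unadjusted p below 0.05 in limma, while 3 of the 17 listed symbols there did. These were *Pddc1* and the 2 names of *Cracr2b*, *Efcab4a* and *BC026645*. The listed symbols within 1 Mb were brighter, with a median level of 10.22 against 6.36 for the other 31, and the 2 groups were not compared at like brightness. Listed and other symbols together gave 6.25% within 1 Mb, 11.2% of 89 within 5 Mb and 10.5% of 105 within 10 Mb. Across the 29 listed symbols, the Spearman correlation between the gap to *Cd151* and the size of the log2 fold change was −0.124, a description across genes that share the same 8 arrays.

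**Figure D4:**
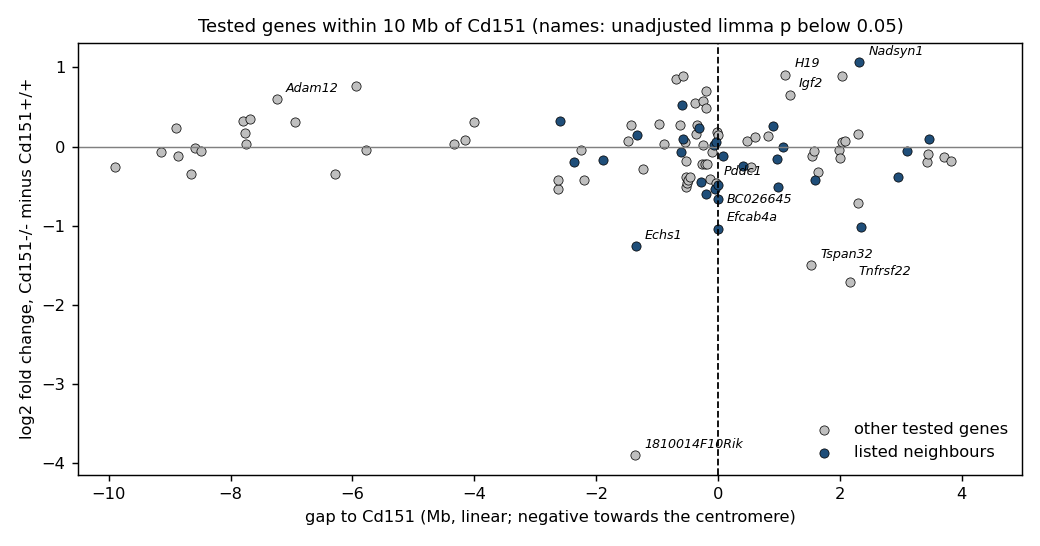
Log2 fold change (vertical axis) of the tested symbols within 10 Mb of Cd151 against the gap to Cd151 in Mb (horizontal axis, linear, negative towards the centromere, Cd151 itself at the dashed line and not drawn), with listed neighbours in blue and other symbols in grey. Names mark an unadjusted p below 0.05, with 1810014F10Rik at −3.90 as the lowest point and most other symbols within 1 log2 unit of 0.

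Other members of the pathways in which neighbours act were read from lists. Around *Irf7*, 11 of 20 genes of the interferon response were tested, and 1 was lower at an unadjusted p below 0.05 in limma, *Rtp4* at −0.66, with a list median of −0.17, beside 2.47% of all symbols that were lower. *Rtp4* was detected in 4 *Cd151*+/+ and 2 *Cd151*-/- mice, was at −0.24 without the normexp background correction, and had an unadjusted p below 0.05 in 15 of the 21 other settings. Around *Tollip*, 14 of 18 genes of IL-1 and Toll-like receptor signalling were tested, with a median of −0.23, and 1 was higher, the receptor subunit gene *Il1rap* at 0.63, beside 1.90% of all symbols that were higher. Its probe was detected in 1 *Cd151*+/+ and 4 *Cd151*-/- mice, and its unadjusted p in limma was above 0.05 without normexp, where it was at 0.23 (0.0509), and with 75th percentile scaling, where it was at 0.34 (0.271). *Il1rap* had 3 other tested probes, at −0.10, −0.17 and 0.16, and without *Cd151*-/- mouse 3 the first of these was the brightest, at −0.08, while the probe reported here was at 0.60. Around *Cracr2b*, 6 of 10 genes of store-operated calcium entry were tested, with a median of −0.04, and 1 was lower (2.47% over all symbols), *Itpr3*, which encodes a calcium release channel, at −0.94 (standard error 0.31, unadjusted p = 0.0125 in limma). *Orai1*, *Orai2*, *Orai3* and *Stim2* had no row under their symbol, and *Itpr1* was the brightest gene of the list.

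The other lists held no gene at an unadjusted p below 0.05 in limma. These were the 14 tested genes of the proteasome regulatory particle around *Psmd13* (median 0.17, *Psmd4* the brightest), the 6 of the AP-2 adaptor and clathrin around *Ap2a2* (median −0.08, *Clta* the brightest), and the 5 RNA polymerase II subunits (median 0.09, *Polr2e* the brightest). Of 12 genes of fast skeletal muscle around *Tnni2* and *Tnnt3*, 6 were tested, with a median of 0.08, and *Pvalb* was the brightest, while *Ckm*, *Acta1*, *Tnnc2* and *Myh4* were detected on no array.

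Markers of the tissue and of other cells were read beside the neighbours. All 5 tested podocyte markers, with *Cdkn1c* the brightest, and all 6 of the glomerular endothelium, with *Emcn* the brightest, were detected, while *Nphs1* and *Synpo* had no row under their symbol. The 2 lists had median log2 fold changes of −0.19 and −0.39, with all 5 and all 6 values below 0 and no gene at an unadjusted p below 0.05. One of the 6, *Kdr*, was detected in 2 *Cd151*+/+ and 0 *Cd151*-/- mice. It passed the filter only through the group where it was higher, so its direction adds nothing to that count. Of 6 markers of mesangium and smooth muscle 5 were tested, 1 with a value above 0 and 4 below (median −0.35). *Acta2*, the brightest, was at 0.71 and *Pdgfrb* at −0.74, with an unadjusted p below 0.05 here and in 17 and 11 of the 21 other settings, beside 4.37% of all symbols in either direction. Of 7 proximal tubule markers 5 were tested, none past the threshold. *Lrp2* was detected in 0 *Cd151*+/+ and 2 *Cd151*-/- mice and passed the filter only through the group where it was higher. With *Lrp2*, whose direction adds nothing to the count, all 5 had values above 0 (median 0.55, *Slc34a1* the brightest). Their summed signal on the log2 scale was 13.78, 14.14, 14.95 and 15.20 in *Cd151*+/+ mice 1 to 4. In *Cd151*-/- mice 1 to 4 it was 15.44, 14.81, 14.67 and 15.43. It was lowest in *Cd151*+/+ mice 1 and 2, which were on dimmer arrays. The difference of *Slc34a1* was 0.93 on the dimmer and 0.03 on the brighter arrays. In the same order *Slc22a6* was at 1.81 and 0.15, *Aqp1* at 0.87 and 0.24, and *Slc5a2* at 1.44 and −0.34.

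Of the markers of the loop, distal tubule and collecting duct, 4 of 5 were tested, with *Umod* the brightest and a median of −0.33. All 3 erythroid markers were tested, and 2 were lower at an unadjusted p below 0.05, *Hba-a1* at −0.69 and *Alas2* at −2.57, beside 2.47% of all symbols. The third, *Hbb-b1*, was detected in 1 *Cd151*-/- mouse alone and was at −0.02. *Hba-a1* was among the brightest probes of the array and was at −1.05 with cubic spline normalisation, and its unadjusted p was below 0.05 in 17 of the 21 other settings and that of *Alas2* in 20. The summed signal of the 3 erythroid markers was 15.59, 15.60, 15.38 and 15.19 in *Cd151*+/+ mice 1 to 4 and 14.10, 15.11, 15.18 and 14.55 in *Cd151*-/- mice 1 to 4. It was lower in every *Cd151*-/- mouse than in every *Cd151*+/+ mouse, though *Cd151*-/- mouse 3 (15.183) and *Cd151*+/+ mouse 4 (15.188) were nearly equal. For *Hba-a1* alone the groups overlapped, with these 2 mice at 15.18 and 15.14. Of 7 leukocyte markers 3 were tested, with *Lyz* the brightest and a median of 0.25, while *Ptprc*, which defines leukocytes, and *Cd79a*, *Itgam* and *Emr1* were detected on no array. Of 6 skeletal muscle markers 2 were tested. The part of these cells in the differences of *Echs1*, *Cracr2b*, *Pddc1* and *Nadsyn1* was not tested.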

How the data were processed

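The authors hybridised biotin-labelled cRNA of 8 mice to MouseRef-8 v1.1 arrays and read them with the BeadArray Reader; the submitters' processing notes name GenomeStudio, whose version is not given in the sources used here. Their own analysis used cubic spline normalisation. The authors deposited the signal intensity of 25697 probes per array, neither background-subtracted nor normalised, and a detection p-value in steps of 1 over 798. In R 4.3.3 with limma 3.58.1, the background was inferred from the detection p-values, neqc was applied (offset 16, quantile normalisation), and the genotypes were compared with lmFit and eBayes on the 14967 probes that at least 1 array called detected (0.05), adjusted by Benjamini-Hochberg over them. The fit was checked on simulated data. Exact permutation tests were two-sided over 70 relabelings.

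The members, lists and tests were chosen with earlier results of these data known. Values in every mouse are given for neighbours with an unadjusted p below 0.05 or without overlap, and for the nearest 3 listed genes on each side, of which *Polr2l* and *Chid1* had no values; the other mouse values were chosen after they were seen. Symbols were matched to RefSeq genes of GRCm38.p6, 12036 directly, 5203 by a synonym of 1 gene and 1 by the name in the study, of 18120. The files name no build, so positions served only for order and windows. Alternatives covered background correction, normalisation, filters, blocks, variance model, array weights, a Student's t-test, the probe taken and each mouse left out. The t-test was chosen here, as the study's methods name none for the arrays. The pathway lists were those of the interferon response, IL-1 and Toll-like receptors, proteasome, AP-2, calcium entry, RNA polymerase II and fast muscle, and the marker lists those of 8 kinds of cells. A sample is 1 mouse.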

Additional observations from a re-analysis of the deposited data

Results flagged for a closer look

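In 2 of 58 groups of 4 mice, 1 group per genotype and tested neighbour, 1 mouse stood far from the other 3, where chance gives about 1 in 20. For *Bet1l* the lowest of the *Cd151*-/- mice was mouse 1 at a normalised log2 signal of 10.69, while the next was at 11.05. For *Tssc4* the highest of the *Cd151*-/- mice was mouse 3 at 8.14, while the next was at 7.39. Without that mouse the log2 fold change of *Tssc4* was −0.62 (unadjusted p = 0.0354 in limma, against 0.146 with all mice). The mouse was picked as the highest of its group, so a lower value was fixed by the choice. Without it 9.43% of all symbols had an unadjusted p below 0.05 in limma, against 4.37% with all mice. Without *Cd151*+/+ mouse 1 the log2 fold change of *Tssc4* was −0.27 at the same probe, and −0.095 at its other probe, which was then the brighter.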

How the results depend on the processing

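No neighbour passed Benjamini-Hochberg adjustment in limma or in the t-test under any of the 21 settings. *Efcab4a* and *Echs1* kept their direction and an unadjusted p below 0.05 in all of them. The number of lower neighbours, 4, was 7 with no detection filter, 8 with the array set as block, 13 with array weights and 2 to 6 with 1 mouse left out. The number of higher neighbours, 1, was 3 with array weights, and 0 in the t-test on cubic spline intensities and with the mean over probes. The number lower without overlap, 1, was 2 with cubic spline normalisation, 75th percentile scaling and cubic spline intensities, and 1 to 6 with 1 mouse left out. The number higher without overlap was 0 to 2 with 1 mouse left out. Smaller groups stand apart more often by chance, and the share over all symbols was not computed under these settings. These counts are therefore not read as a result about the neighbours. The median over the neighbours, −0.16, was −0.26 to −0.03 with 1 mouse left out, −0.36 with array weights, −0.08 with no detection filter and without normexp, −0.10 with an offset of 50, −0.22 with 75th percentile scaling (−0.06 over all symbols) and −0.09 under the stricter detection filter.

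Over all symbols, the 213 higher and 278 lower became 116 and 180 with 75th percentile scaling, 341 and 462 with no detection filter, 586 and 633 with the array set as block, 1736 and 1848 with array weights, and 100 to 492 and 132 to 555 with 1 mouse left out, and 131 were higher on cubic spline intensities. The 3 symbols past adjustment became 6 with the array set as block, 5 with array weights and 2 to 4 with 1 mouse left out. They became 1 in the t-test on log2 values and 0 on cubic spline intensities, where *Cd151* was at −14.39 with its *Cd151*-/- mean held at a floor. With the mouse number as a replicate block, 146 symbols were lower and 174 higher, with 3 neighbours lower and 1 higher. Mice of the same number deviated from their group means with correlations of −0.583 to −0.009. They always lay in different array sets, so these correlations cannot tell whether the numbers pair mice. Of genes near *Cd151* that are not in the list, 0 of 31 had an unadjusted p below 0.05 within 1 Mb. The causes of these changes were not tested, other than that fewer or more probes were tested under the filters.

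A few small differences changed direction. *Mrpl23* was at 0.0125 with cubic spline normalisation, 0.0379 with 75th percentile scaling, 0.0041 with array weights and 0.0158 on cubic spline intensities, *Slc25a22* at −0.26 with 75th percentile scaling, *Taldo1* at −0.0276 and *Tnni2* at 0.0166 with array weights, and *Ccnd1* at −0.15 with the mean over probes. With 1 mouse left out, *Ap2a2* ran from −0.33 to 0.0331, *Bet1l* from −0.20 to 0.0909, *Mrpl23* from −0.0557 to 0.0704, *Slc25a22* from −0.12 to 0.24, *Taldo1* from −0.0638 to 0.11, *Tnni2* from −0.28 to 0.0394, *Paox* from −0.0219 to 0.28 and *Il1rap*, where the brightest probe changed, from −0.0822 to 0.70. Signals near background, as those of *Slc25a22*, *Tnni2* and *Dpysl4*, limit what can be told of these genes.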
